A study of Mus musculus with 16 samples.

Results

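Aqp2, Slc26a4 and Atp6v1g3 are genes of the kidney collecting duct, and each was measured by 1 probe on cDNA arrays that set kidney against liver. The members were the probes whose only gene symbol is Aqp2, Slc26a4 or Atp6v1g3, which gave 3 of the 20419 probes on the array and 3 of the 9669 genes with a probe of their own. RNA came from male wildtype C3HeB/FeJ mice at the age of 105 days, give or take 5 days. On 7 arrays the left kidney of 1 mouse was set against a pool of livers from 5 mice (kidney arrays), and on 9 arrays the dorsal liver lobe of 1 mouse was set against a kidney pool of 5 mice (liver arrays). The single samples came from 3 mice, with 3, 3 and 1 kidney arrays and 3 liver arrays each. The labels name no treatment, and organ and animal were the factors used here. Repeat hybridisations of 1 mouse and organ were averaged into 1 value, which left 6 averages. A pool adds no spread of its own, so the p-values of kidney over liver rest on 3 mice. The main fit took the 6 averages as independent and had no term for the mouse.

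The collecting duct is the last segment of the renal tubule, where the final volume and acidity of urine are set. Its principal cells take up water and sodium: vasopressin raises cAMP, which moves the water channel Aqp2 from vesicles into the apical membrane. Its intercalated cells secrete acid or base. Slc26a4 (pendrin) exchanges chloride for bicarbonate in the apical membrane of base-secreting intercalated cells, and Atp6v1g3 is a kidney isoform of the G subunit in the soluble part of the V-ATPase, the proton pump of these cells. In the liver, bile duct epithelium also secretes bicarbonate and moves water, and it shares some epithelial genes with the collecting duct.

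The 250 bases before the start of each gene are shown because the 3 genes were high in the same organ and the sequences show what these windows do and do not have in common. They come from RefSeq (build GRCm38.p6) and are written on the strand of the gene. Aqp2 lies at chr15:99578806-99579055 on the plus strand, Slc26a4 at chr12:31559985-31560234 on the minus strand and Atp6v1g3 at chr1:138273488-138273737 on the plus strand. Capitals mark matches, on either strand, to 4 short motifs that were picked after the sequences had been seen: TGACG from the cAMP response element, GATAAG bound by GATA factors, TATAA and the forkhead core TGTTTG. None of these motifs overlapped another within the 3 windows.
Aqp2: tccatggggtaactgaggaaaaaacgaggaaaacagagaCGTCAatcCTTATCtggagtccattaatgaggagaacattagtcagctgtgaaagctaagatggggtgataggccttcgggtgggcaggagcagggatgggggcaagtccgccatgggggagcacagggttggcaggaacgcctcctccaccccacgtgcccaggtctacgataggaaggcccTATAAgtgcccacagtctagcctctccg
Slc26a4: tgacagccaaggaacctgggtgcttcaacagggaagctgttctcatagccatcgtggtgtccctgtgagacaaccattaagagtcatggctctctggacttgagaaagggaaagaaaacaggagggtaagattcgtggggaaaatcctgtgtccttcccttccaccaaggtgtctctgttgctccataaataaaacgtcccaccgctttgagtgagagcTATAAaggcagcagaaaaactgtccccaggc
Atp6v1g3: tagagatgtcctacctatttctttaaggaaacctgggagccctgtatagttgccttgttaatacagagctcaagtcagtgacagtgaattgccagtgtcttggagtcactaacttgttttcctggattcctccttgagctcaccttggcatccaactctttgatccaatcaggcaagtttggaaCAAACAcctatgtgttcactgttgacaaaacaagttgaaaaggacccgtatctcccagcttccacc

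The Aqp2 window held TGACG on the opposite strand at positions -211 to -207 from the gene start, GATAAG on the opposite strand at -203 to -198, and TATAA at -28 to -24. The Slc26a4 window held TATAA at -31 to -27 and none of the other motifs. The Atp6v1g3 window held TGTTTG on the opposite strand at -66 to -61, and no TATAA. No motif was found in all 3 windows. Among 27025 mouse windows of the same length, TGACG occurred in 17.9%, GATAAG in 6.60%, TATAA in 23.5% and TGTTTG in 16.1%. GC content was 55.6% for Aqp2, 49.6% for Slc26a4 and 44.4% for Atp6v1g3, against a median of 52.0% over those windows. A match to so few letters is a description of the sequence and not a binding site.

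Values are log2 ratios turned to kidney over liver, so that a positive value means more signal from kidney. No label says which channel is the numerator. Minus the deposited value was used on kidney arrays and the value itself on liver arrays. With the order of the titles in its place, every sign below would turn and every size would stay. On this reading all 16 proximal tubule genes had a positive estimate, with a median of 4.04. Of 23 hepatocyte genes 0 did, with a median of -6.78. At a limma adjusted p under 0.05, 15 of the first were higher in kidney, against 5.56% of all genes tested. Of the second, 21 were higher in liver, against 8.88%. These lists were chosen with earlier results of these data known, so their counts are no independent evidence of the direction. With every sign turned, the hepatocyte gene Alb, at -7.89, would be higher in kidney. The proximal tubule gene Kap, at 6.05, would then be higher in liver. The arrays held between 15480 and 19432 probes with a value. The labels state a median ratio of 1, but the 6 arrays of mouse 2 had medians between -1.49 and -1.19 when turned, while on the other 10 arrays the median differed from 0 by at most 0.00267. Values were used as deposited, and values with each array centred on its median are given beside them. Centring moved the median of all 9047 genes tested from -0.48 to -0.01. The offset of mouse 2 was small among bright probes, whose exact values seldom recur on an array. There its turned values were 0.234 lower than those of the other mice on kidney arrays and 0.346 lower on liver arrays, against 1.55 and 1.43 among dim probes. The probes of all 3 members were bright, a class that a large ratio can reach at any intensity.

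Aqp2, the vasopressin-regulated water channel of principal cells, was higher in kidney on 16 of 16 arrays. On the kidney arrays its log2 ratio was 2.88, 1.98 and 3.42 in mouse 1, 2.22, 2.23 and 2.39 in mouse 2, and 3.21 in mouse 3. On the liver arrays it was 3.30, 3.20 and 3.65 in mouse 1, 2.47, 2.41 and 2.27 in mouse 2, and 3.13, 3.30 and 2.99 in mouse 3. The values of both kinds of array overlapped, and the lowest one was a kidney array of mouse 1 whose repeats stood at 2.88 and 3.42. The ratio of Aqp2 ranked between the 98.0th and the 99.5th percentile of the probes on its array. Over mice, it averaged 2.75 ± 0.47 (SD, n = 3) on kidney arrays and 2.97 ± 0.52 (SD, n = 3) on liver arrays. The limma estimate over both was 2.86 (SE 0.24), a 7.26-fold higher level in kidney, with an adjusted p of 7.09e-05.

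Slc26a4, the chloride and bicarbonate exchanger pendrin, was higher in kidney on 16 of 16 arrays as well. Its kidney arrays gave 2.35, 2.02 and 2.71 in mouse 1, 3.05, 1.92 and 2.40 in mouse 2, and 2.16 in mouse 3. Its liver arrays gave 3.33, 2.97 and 2.87 in mouse 1, 1.75, 1.88 and 2.01 in mouse 2, and 3.31, 3.24 and 3.46 in mouse 3. In mice 1 and 3 every liver array exceeded every kidney array, while in mouse 2 all but 1 kidney array exceeded every liver array. The averages over mice were 2.33 ± 0.15 (SD, n = 3) on kidney arrays and 2.76 ± 0.77 (SD, n = 3) on liver arrays. The limma estimate was 2.54 (SE 0.25), or 5.82-fold higher in kidney, with an adjusted p of 1.94e-04.

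Atp6v1g3, the V-ATPase G subunit, had the highest estimate of the 3 and also the most uneven values. It was above 0 on 15 of 16 arrays. Its kidney arrays gave 3.57, 3.28 and 3.29 in mouse 1, 2.41, 2.64 and 2.45 in mouse 2, and 4.69 in mouse 3. Its liver arrays gave 3.88, 4.15 and -0.13 in mouse 1, 2.15, 2.14 and 2.62 in mouse 2, and 4.16, 4.56 and 3.62 in mouse 3. Apart from 1 array of mouse 1, hybridisation 1f, the mice did not overlap on either kind of array except for mice 1 and 3 on the liver arrays. The averages over mice were 3.52 ± 1.10 (SD, n = 3) on kidney arrays and 3.02 ± 0.96 (SD, n = 3) on liver arrays. The limma estimate was 3.27 (SE 0.35), or 9.65-fold higher in kidney, with an adjusted p of 3.30e-04.

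**Figure D1:**
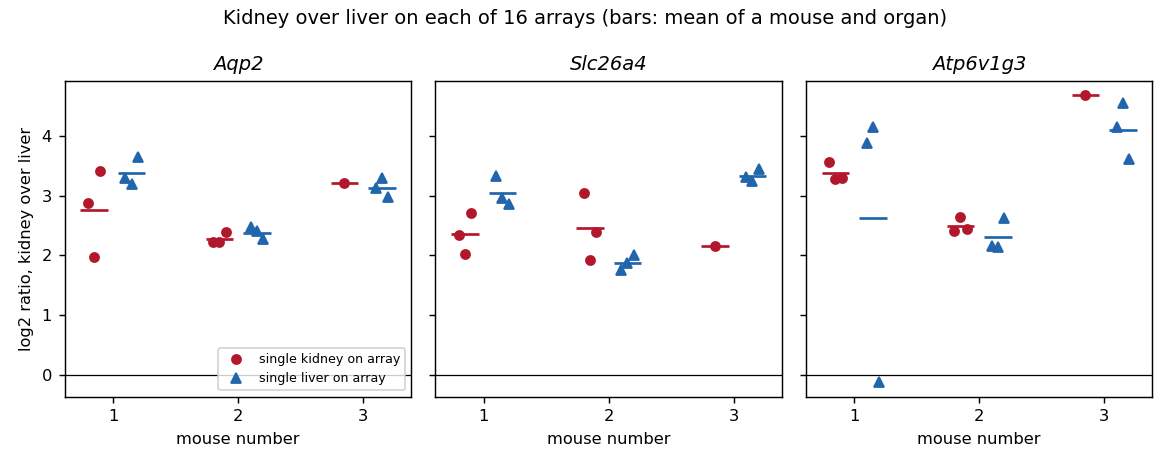
Log2 ratio of kidney over liver (vertical axis, values as deposited and turned) for Aqp2, Slc26a4 and Atp6v1g3 on 16 arrays, by mouse (horizontal axis). Circles are kidney arrays, triangles are liver arrays and short bars are the mean of a mouse and organ. Of the 48 points, 47 lie above 0, and the 1 below it is Atp6v1g3 on a liver array of mouse 1.

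All 3 members passed the test at an adjusted p under 0.05, where 14.4% of the 9047 genes tested passed in either direction and 5.56% passed as higher in kidney. Counted from the highest kidney over liver estimate, Atp6v1g3 ranked 45th, Aqp2 66th and Slc26a4 76th among those genes, and the same places would count from the lowest with every sign turned. By absolute estimate they ranked 146th, 195th and 227th. With the arrays centred the estimates were 3.72 for Atp6v1g3, 3.31 for Aqp2 and 2.99 for Slc26a4, and 19.5% of genes passed as higher in kidney. The kidney and liver arrays of 1 mouse share an animal, so a fit with the mouse as a replicate block was also made. Its mouse term was fitted to the single sample over the pool. A shift of kidney over liver that both kinds of array of a mouse share therefore stayed in its error. It kept the estimates, but their SE rose to 0.38 for Aqp2, 0.38 for Slc26a4 and 0.45 for Atp6v1g3. Its limma adjusted p was 5.44e-04 for Aqp2, 0.00116 for Slc26a4 and 6.15e-04 for Atp6v1g3. In that fit 2.9% of 7514 genes passed as higher in kidney. A ratio between whole organs does not separate more collecting duct cells from more RNA per cell, and it gives no level of either organ by itself.

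The ratios of the 3 members were compared in pairs over mice, where 3 mice cannot give a p under 0.25. The difference was 0.32 ± 0.14 for Aqp2 minus Slc26a4, -0.41 ± 0.71 for Aqp2 minus Atp6v1g3, and -0.73 ± 0.80 for Slc26a4 minus Atp6v1g3 (SD, n = 3 mice). Two-sided exact permutation tests over mice gave p = 0.25, 0.5 and 0.25, or 0.375, 0.5 and 0.375 after Benjamini-Hochberg adjustment over 3 pairs. Means over the arrays of a mouse had the same sign in all 3 mice for Aqp2 minus Slc26a4 and for Slc26a4 minus Atp6v1g3, so these pairs reached the smallest p, and no order of the 3 could be shown. Aqp2 exceeded Slc26a4 in 4 of 6 averages, and Slc26a4 exceeded Atp6v1g3 in 1 of 6. That 1 average held hybridisation 1f, and without 1f it was 0 of 6. Without 1f the differences were 0.28 ± 0.13, -0.66 ± 0.58 and -0.94 ± 0.71 (SD, n = 3 mice), each with 1 sign in all 3 mice and an exact permutation p of 0.25.

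Each organ served as single sample and as pool, so the 2 kinds of array measured the same contrast from opposite sides. Kidney arrays minus liver arrays gave -0.22 (SE 0.48) for Aqp2, -0.43 (SE 0.50) for Slc26a4 and 0.51 (SE 0.70) for Atp6v1g3. None of the 3 passed in limma (adjusted p = 1 for each), and 0.0% of the 9047 genes passed, with 16 genes, or 0.177%, at an unadjusted p under 0.05. This fit had no term for the mouse, so what the arrays of 1 mouse share stayed in its error. It cannot show that both kinds of array agree. With the mouse as a block, here fitted to kidney over liver and so unlike the block above, the SE was 0.19, 0.28 and 0.18. This block takes out what both kinds of array of a mouse share. The limma p was then 0.273, 0.151 and 0.0182 before adjustment and 0.737, 0.671 and 0.579 after it, and 9 genes passed. For Atp6v1g3 the difference of 0.51 was 0.04 without hybridisation 1f.

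Hybridisation 1f put Atp6v1g3 at the 39.9th percentile of its probes, while the other 15 arrays put it between the 99.0th and the 99.7th. On the same array Aqp2 stood at 3.65 and Slc26a4 at 2.87, close to their repeats. On 1f, 19 of 8637 genes (0.22%) lay over 2 log2 units from both repeats while the repeats lay within 1 of each other. On the 14 other arrays with repeats that share was 0.0465% to 0.249%. Without 1f the mean of mouse 1 on liver arrays rose from 2.63 to 4.02, and the spread of Atp6v1g3 between hybridisations fell from an SD of 1.11 to 0.28. Aqp2 and Slc26a4 had 0.35 and 0.32, and the median gene had 0.26. The estimate for Atp6v1g3 without 1f was 3.50.

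The order of the mice, and for some members the call between them, moved with the scaling of the arrays of mouse 2, and each mouse is 1 animal. As deposited, mouse 2 was the lowest of the 3 on the liver arrays for each member, with means of 2.38 for Aqp2, 1.88 for Slc26a4 and 2.30 for Atp6v1g3. After centring it was the highest for Aqp2 on both kinds of array, at 3.65 and 3.72, and for Slc26a4 on the kidney arrays, at 3.83. Mouse 3 had the highest mean of Atp6v1g3 on both kinds of array under both scalings, 4.69 and 4.11 as deposited. On its kidney side mouse 3 had a single array. With mouse 2 aligned by the bright probes its means were 2.49 and 2.73 for Aqp2, 2.66 and 2.23 for Slc26a4, and 2.71 and 2.65 for Atp6v1g3.

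The mice were compared on single arrays, so the error in these tests is that between repeat hybridisations of 1 RNA and holds no spread between animals. On centred kidney arrays the limma F-test between mice gave an adjusted p of 0.0998 for Aqp2, 0.00546 for Slc26a4 and 0.00733 for Atp6v1g3, where 49.0% of genes passed. As deposited it gave 0.158, 0.797 and 1.24e-04, where 75.0% passed. Atp6v1g3 on kidney arrays also passed after quantile normalization and with mouse 2 aligned (adjusted p = 0.0369 and 4.04e-04 in limma), while Aqp2 passed under none of these 4 scalings. Between mice 1 and 3 alone, which the offset does not touch, the limma adjusted p was 0.781, 0.840 and 0.149, and 0.0405% of genes passed. For Atp6v1g3 the difference between these mice, 3.38 against 4.69, was the same 1.31 as the whole range in the fit of 3 mice. On centred liver arrays the adjusted p was 0.0374 for Aqp2, 0.342 for Slc26a4 and 0.383 for Atp6v1g3, where 42.1% passed. As deposited it was 5.20e-04, 4.45e-05 and 0.168, where 87.0% passed, and between mice 1 and 3 it was 0.426, 0.345 and 0.441, where 0.585% passed. Atp6v1g3 on liver arrays passed under none of the 4 scalings, and Slc26a4 passed there under each scaling but centring.

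**Figure D2:**
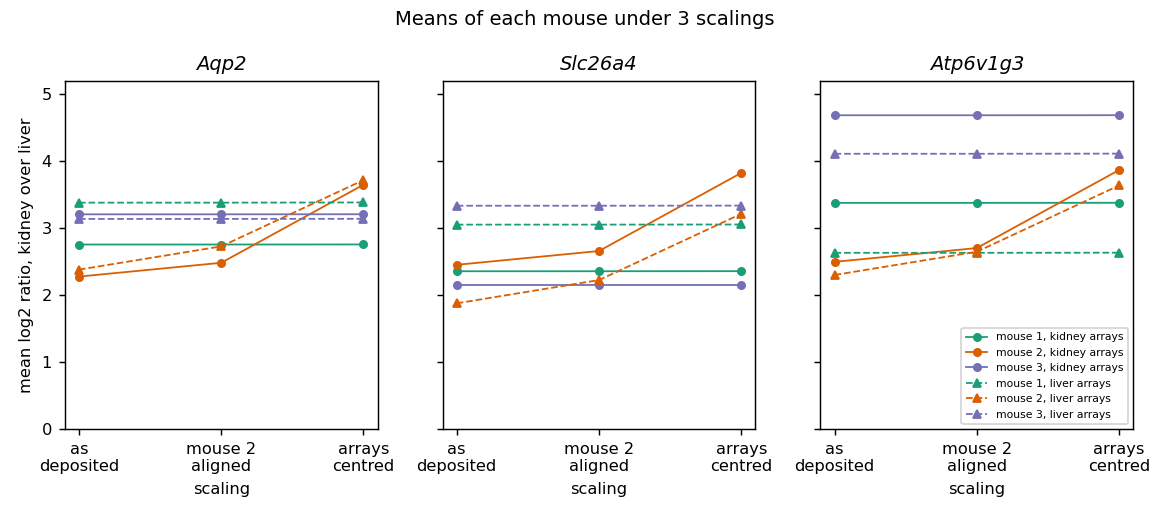
Mean log2 ratio of kidney over liver (vertical axis) for each mouse under 3 scalings (horizontal axis). Solid lines with circles are kidney arrays and dashed lines with triangles are liver arrays. Mouse 2 moves with the scaling, from 2.28 to 3.65 for Aqp2 on kidney arrays, while mice 1 and 3 stay in place.

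The defining markers of both cell types were partly covered. Of 6 principal cell markers, Aqp2 and Hsd11b2 had a probe with that single symbol, and Hsd11b2, which inactivates glucocorticoids in aldosterone target cells, had 0.87 (SE 0.37, limma adjusted p = 0.139). Of 6 intercalated cell markers, 4 were measured. Besides the members these were Foxi1, the transcription factor of intercalated cells, at 0.62 (SE 0.29, adjusted p = 0.164), and Slc4a1, the anion exchanger of acid-secreting cells and of red cells, at -1.17 (SE 0.32, adjusted p = 0.0523). After centring, Hsd11b2 and Foxi1 were higher in kidney at 1.32 and 1.07 (limma adjusted p = 6.80e-04 and 1.72e-04), and Slc4a1 was higher in liver at -0.60 (adjusted p = 0.0123). The probe of Slc4a1 was dim.

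The counts of each list can be read against all genes tested, of which 5.56% passed as higher in kidney and 8.88% as higher in liver, or 19.5% and 12.4% after centring. The lists were chosen with earlier results of these data known, and several hold the members themselves. Such a reading is therefore a description and no test of a list. The median of all genes was -0.48, with 503 and 803 genes passing, or 1766 and 1126 after centring. Over the wider principal cell list, 3 of 8 measured genes passed as higher in kidney and 0 as higher in liver, and the median was 0.45 (0.89 centred). Beside Aqp2 these were Fxyd4, a regulator of the sodium pump, at 1.57 (SE 0.37), and Npnt, a matrix protein of renal epithelium, at 1.52 (SE 0.27). Fxyd4 ranged from -0.28 to 2.35 over the 6 averages, and its limma adjusted p of 0.0251 became 0.0658 with the block. Scnn1a, the alpha subunit of the epithelial sodium channel, had -0.11, and Gata2 and Gata3, transcription factors of principal cells, had 0.03 and -0.23. Without mouse 1 or without mouse 3, 1 gene of this list passed as higher in kidney, and without mouse 2 or after centring 5 did.

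The intercalated cell list had 4 of 10 measured genes that passed as higher in kidney and 0 as higher in liver, and a median of 0.54 (0.99 centred). Beside the members these were Atp6v1c2, an isoform of the V-ATPase C subunit, at 1.53 (SE 0.39), and Rhcg, an ammonia channel, at 1.47 (SE 0.37). Atp6v1c2 ranged from -0.34 in mouse 2 to 3.10 in mouse 3, and its adjusted p of 0.0342 became 0.0782 with the block. Rhcg had 5 averages and no block value. With the block 2 genes of this list passed as higher in kidney, Slc26a4 and Atp6v1g3. Car2, carbonic anhydrase, had 0.47 and Slc4a9 and Rhbg had -0.14 and -0.29, none of which passed. After centring Car2 passed at 0.92 (limma adjusted p = 0.00390), with 6 genes of the list higher in kidney and 1 in liver. Without mouse 1 or without mouse 3, 2 genes passed as higher in kidney, and without mouse 2 there were 6.

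Among V-ATPase subunits, 5 of 16 measured passed as higher in kidney and 1 as higher in liver, against 5.56% and 8.88% of all genes, and the median was 0.04. After centring, 9 were higher in kidney, against 19.5% of all genes, and the median was 0.49. Without mouse 2, 9 were higher in kidney. Atp6v1g3 had the largest value. It was followed by the stalk subunit Atp6v1d at 2.35 (SE 0.22), Tcirg1, the a3 isoform of the membrane part, at 1.99 (SE 0.22), Atp6v0e2 at 1.75 (SE 0.21) and Atp6v1c2 at 1.53. Isoforms of the same subunits did not pass: Atp6v1g2, known from neurons, had -0.55, Atp6v1c1 had -0.26, Atp6v0a1 had -0.58 and Atp6v0a2 had 0.06. After centring Atp6v0a2 was higher in kidney at 0.52 (limma adjusted p = 0.0181). The subunits Atp6v1a, Atp6v1b2 and Atp6v1e1 had 0.01, -0.39 and -0.74.

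Atp6v0b, a subunit of the proton-carrying ring, was higher in liver at -3.20 (SE 0.45, limma adjusted p = 0.00163). It was below 0 in all 6 averages, with -1.33, -3.20 and -4.50 on the kidney arrays of mice 1, 2 and 3 and -2.15, -3.37 and -4.63 on their liver arrays. As deposited, the order of the mice was thus the same on both kinds of array. Centring moves mouse 2 against the other mice, and the order under other scalings is not given here. With the arrays centred the estimate was -2.745 (limma adjusted p = 0.00253). Its value came from 1 probe.

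Of 7 measured aquaporins 2 passed as higher in kidney and 0 as higher in liver, and the median was -0.46 (-0.01 centred, where Aqp11 was higher in liver). Aqp1, the water channel of proximal tubule and thin descending limb, had 2.93 (SE 0.22), close to the 2.86 of Aqp2. Aqp6, an intracellular channel of intercalated cells, had -0.17, and the other members had -0.46 for Aqp5, -0.69 for Aqp7, -0.66 for Aqp8 and -0.86 for Aqp11. Of 8 measured Slc26 and Slc4 anion exchangers, Slc26a4 alone passed as higher in kidney, with a list median of -0.05 (0.40 centred, where 3 were higher in kidney). Its relatives Slc26a1, Slc26a2 and Slc26a11 had 0.04, 0.26 and -0.71, and Slc4a8 and Slc4a11 had -0.49 and 0.31. With centring Slc26a2 and Slc4a11 passed at 0.71 and 0.76, and without mouse 2 the list had 4 genes higher in kidney.

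**Figure D3:**
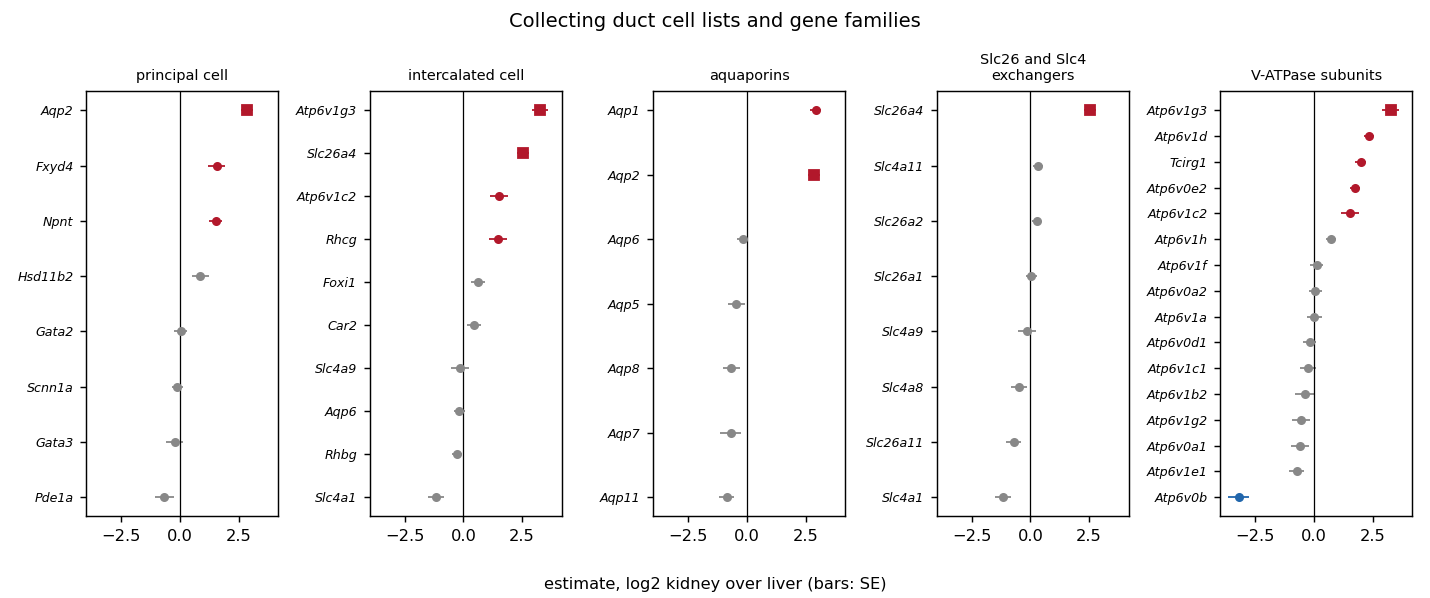
Estimate of log2 kidney over liver (horizontal axis, bars show the SE) for the measured genes of 5 lists. Squares are Aqp2, Slc26a4 and Atp6v1g3, red marks genes higher in kidney and blue genes higher in liver at an adjusted p under 0.05, and grey marks the rest. The squares lie at 2.86, 2.54 and 3.27, and Atp6v0b lies at -3.20.

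Genes that act on Aqp2 or beside it in the principal cell were read from 3 lists. Of 15 measured genes of vasopressin and cAMP signalling, 2 passed, both as higher in liver, against 8.88% of all genes, and the median was -0.48, as for all genes (-0.03 centred, where 4 passed on each side). These were the phosphodiesterase Pde4a at -1.56 (SE 0.33), which had 5 averages and no block value, and Prkar2a, a regulatory subunit of protein kinase A, at -0.88 (SE 0.21), which did not pass after centring (-0.43, limma adjusted p = 0.102) or with the block (adjusted p = 0.246). Without mouse 1 or without mouse 3, 0 genes of this list passed as higher in liver, and without mouse 2 there were 3 on each side. Of 19 genes of Aqp2 trafficking, 2 passed, both as higher in kidney, and the median was -0.37 (0.08 centred, where 7 were higher in kidney). They were the fusion protein Stx3 at 1.34 (SE 0.33) and the small GTPase Cdc42 at 1.13 (SE 0.21), and neither passed with the block (limma adjusted p = 0.104 and 0.116). Without mouse 1 or without mouse 3, 0 genes passed as higher in kidney, and without mouse 2 there were 8.

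Of 13 genes of the aldosterone and ENaC pathway, 1 passed as higher in kidney and 2 as higher in liver, and the median was -0.16 (0.30 centred, where 4 and 3 passed). The ubiquitin ligase Nedd4 had -3.82 (SE 0.22) and Hsd11b1, which regenerates active glucocorticoid, had -1.76 (SE 0.20). Fkbp5, a steroid-induced chaperone partner, had 0.95 (SE 0.26, limma adjusted p = 0.0414), and its adjusted p was 0.235 with the block. Without mouse 1 or without mouse 3, 0 genes of this list passed as higher in kidney, and without mouse 2 there were 4. Of 12 genes of collecting duct and ureteric bud epithelium, 2 passed on each side, against 5.56% and 8.88% of all genes, and the median was -0.44 (0.01 centred). Without mouse 1 these counts were 1 and 1, without mouse 2 they were 4 and 1, and without mouse 3 they were 1 and 0. Wfdc2, a secreted protein of duct epithelia, had 2.53 (SE 0.25), and Lgals3, a galectin of collecting duct cells, had 1.60 (SE 0.28). The keratin Krt18 had -1.87 (SE 0.30), from 5 averages and with no block value. The transcription factor Sox9 had -1.03 (SE 0.24) from a dim probe, and its limma adjusted p was 0.177 with the block. With the block 2 genes of this list passed as higher in kidney and 0 as higher in liver.

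Segments and cell types near the collecting duct, or like it, were set beside these values. In the loop of Henle and distal tubule list 2 of 8 genes passed as higher in kidney and 1 as higher in liver, and the median was -0.36 (0.10 centred). Cdh16, a cadherin of tubule epithelium, had 5.15, Umod of the thick ascending limb had 3.87, and Fxyd2, a regulator of the sodium pump, had -1.34 from a dim probe, with an adjusted p of 0.0968 with the block. The bile duct epithelium list had 2 of 8 genes that passed as higher in kidney and 1 as higher in liver, and a median of -0.15 (0.30 centred). These were the sodium glucose transporter Slc5a1 at 2.00, which the proximal tubule list also holds, the chloride channel Cftr at 1.37 (limma adjusted p = 0.0505 with the block), and Sox9. Without mouse 1, mouse 2 or mouse 3, this list had 0, 4 and 1 genes higher in kidney. The 4 largest proximal tubule values were 6.05 for Kap, 5.18 for Miox, 5.16 for Cubn and 5.15 for Slc13a1. Each exceeded the estimates of the 3 collecting duct members, as did the median of 4.04 over the 16 measured genes of that list. Not every gene of it did. Slc13a3 at 3.03 and Aqp1 at 2.93 lay among the members. Slc27a2 at 2.01, Slc5a1, Slc17a1 at 1.39 and Slc7a7 at 0.98 lay below all 3.

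The genes whose centred ratios ran most like each member over the 16 arrays were ranked by Pearson correlation among 5221 genes. These are descriptions, since arrays of 1 mouse share an animal and a scale. For Aqp2 they were Fuom (0.872), Slc22a5 (0.844), Fbxl15 (0.841), Cdc123 (0.840) and Tmem82 (0.829), of which Slc22a5, a carnitine transporter, was also high in kidney. All 5 were lowest on the same kidney array of mouse 1 on which Aqp2 was lowest. For Slc26a4 they were Zpbp2 (0.879), Mmut (0.856), Nek4 (0.852), Ube2n (0.851) and Rbm4b (0.845). For Atp6v1g3 they were Cct8l1 (0.903), Rnf19a (0.900), Mbd2 (0.832), Prc1 (0.823) and Fnbp1l (0.812). All 5 were at their lowest on hybridisation 1f, and 0 of the 5 remained without that array. Without 1f, 4 of 5 remained for Aqp2 and 4 of 5 for Slc26a4. Over 6 averages in place of 16 arrays 0, 1 and 0 remained for Aqp2, Slc26a4 and Atp6v1g3.

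No member stood among the genes most like another. The correlation was 0.596 for Aqp2 with Slc26a4, -0.113 for Aqp2 with Atp6v1g3 and 0.121 for Slc26a4 with Atp6v1g3 over the 16 arrays. Without 1f these were 0.630, 0.168 and 0.0756. The 2 intercalated cell genes thus varied less alike over these arrays than Aqp2 and Slc26a4 did, and this difference was not tested. The correlation of Aqp2 and Slc26a4 was not unusual among genes. Slc26a4 ranked 1148th of 5221 genes for Aqp2, and 2771st as deposited, where it was 0.619. Aqp2 ranked 840th for Slc26a4, and 804th as deposited.

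Under 15 alternative settings, each member stayed higher in kidney and passed. Each member had 1 bright probe and a value in all 6 averages, so several settings could change its p but not its estimate. These were the replicate block, trend and robust variances, probes in place of genes, dim probes left out, and a value in all 6 averages. The estimate ran from 2.70 to 3.31 for Aqp2, from 2.33 to 2.99 for Slc26a4 and from 2.71 to 3.72 for Atp6v1g3. The highest limma adjusted p was 0.00626, 0.0128 and 0.0102.

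**Figure D4:**
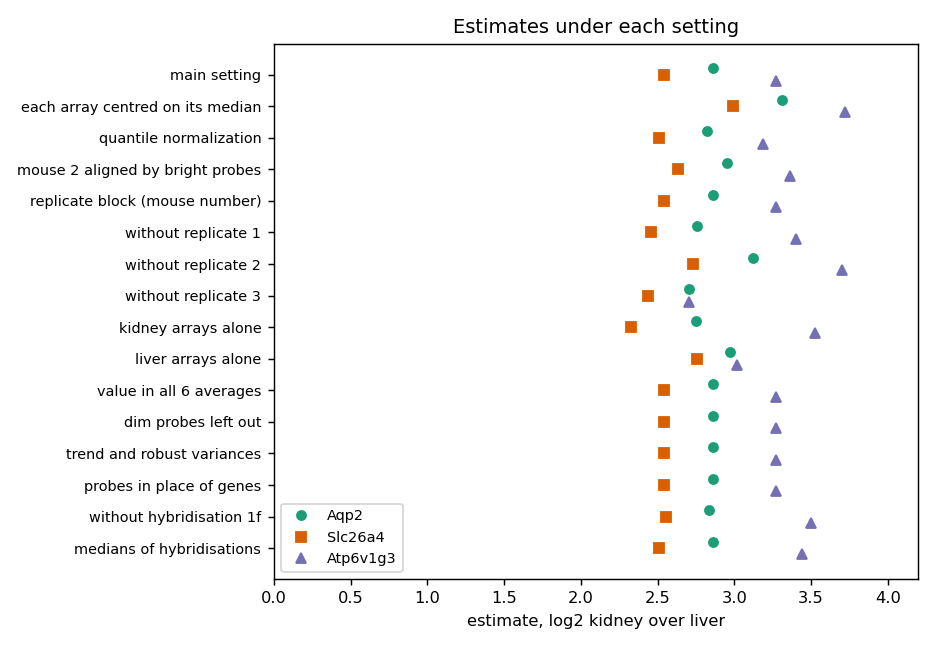
Estimate of log2 kidney over liver (horizontal axis) for Aqp2 (circles), Slc26a4 (squares) and Atp6v1g3 (triangles) under the main setting and 15 alternatives (vertical axis). The lowest point is Slc26a4 at 2.33 from kidney arrays alone, and Slc26a4 is the lowest of the 3 under each setting.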

How the data were processed

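The authors deposited 1 log2 ratio per probe and array. Per the labels' protocols, 20 µg of total RNA was labelled with Cy3 or Cy5, slides were scanned with a GenePix 4000A, and GenePix Pro 3.0 gave background-subtracted mean intensities whose ratios were scaled to a median of 1. The log base comes from the data, where 35 of 90 spacings between frequent values matched log2 of whole-number ratios, and 0 matched natural log or log10. Dyes and the direction of the ratio are not given in the sources used here, and raw intensities were not used. A single gene symbol was given for 11723 probes, several for 806 and none for 7890, and 11590 of the single symbols were found in RefSeq, while 133 kept the platform's name.

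Values were turned to kidney over liver, averaged over the probes of a gene and then over repeat hybridisations. The fit used limma 3.58.1 (R 4.3.3) with the mean and the array kind as coefficients and Benjamini-Hochberg adjustment over all genes with a value in at least 2 mice per organ. Passing means an adjusted p under 0.05. Mice were compared with limma on single centred arrays. The members, lists and rules for naming genes were chosen with earlier results of these data known: per list the 4 largest called genes and up to 3 against the median, and for V-ATPase, aquaporin and exchanger genes the called ones and their isoforms. Fits were tested on simulated data. For kidney over liver the simulated effects were independent for each mouse and organ. The simulation therefore cannot check whether the real averages are independent. By the labels, kidney and liver arrays with the same number share a mouse. Their deviations of kidney over liver from the mean of the other mice were correlated across 7514 genes. The values were 0.575, 0.789 and 0.568 for mice 1, 2 and 3. Mouse 2 and its offset enter each of them, so they are no check that a mouse is shared. The number of arrays limits the precision, and a cDNA probe can also bind close relatives.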

Additional observations from a re-analysis of the deposited data

Results flagged for a closer look

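Atp6v1g3 on hybridisation 1f, a liver array of mouse 1, had a centred log2 ratio of -0.1313, far below the other 8 liver arrays, of which the nearest was at 3.47. The gap to that array was 0.767 of the whole range, above Dixon's critical value of 0.493 for 9 samples. As deposited the gap was 0.484 of the range and did not pass. Such a test picks about 1 group in 20 by chance, and 3 genes were looked at on 2 kinds of array under 2 scalings. The other 2 members were not out of line on that array.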

How the results depend on the processing

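The 3 members kept their direction and passed under all 15 alternatives, 13 of which were planned and 2 of which (without hybridisation 1f, and medians of hybridisations) were chosen after seeing the data. Some of the planned ones could not change the estimates of the members. The count of genes higher in kidney, 503, was 1766 with each array centred, 1011 after quantile normalization, 767 with mouse 2 aligned by bright probes, 218 with a replicate block for the mouse, 169 from kidney arrays alone, 297 from liver arrays alone, 967 for probes in place of genes, and 141 to 1537 with 1 mouse left out. The count higher in liver, 803, was 5508 after quantile normalization, 345 with the replicate block, 285 from kidney arrays alone, 1391 for probes, and 322 to 1189 with 1 mouse left out. Between kinds of array, 0 genes became 1 with centring, 3 after quantile normalization, 9 with the replicate block and 1 with trend and robust variances. Between mice, the 3594 genes on kidney arrays became 5498 as deposited and 3 to 3995 with 1 mouse left out, and the 3512 on liver arrays became 7262 as deposited, 6327 with mouse 2 aligned (chosen after seeing the data) and 50 to 3250 with 1 mouse left out. The lowest counts between mice, 3 and 50, were those without mouse 2, and among the fits with 1 mouse left out the highest count in kidney, 1537, was also without it. The fit on liver arrays alone gave all genes 1 shared SE. The cause of these shifts was not tested. A gene at background in 1 organ has a ratio set by that background, so the sizes are limited by signal over background, which ratios alone do not show.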
